A study of Arabidopsis thaliana with 42 samples.

Results

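The comparison set wild-type Arabidopsis seedlings held at 44 °C for 45 min against wild-type seedlings held at 44 °C for 30 min. The 6 libraries, 3 at each time, were chosen by their labels from the 42 libraries of the series. All were Columbia-0 seedlings, 10 days old, grown on solid medium and moved to liquid medium before the heat began, and per the series text each replicate was made from several plants. The same interval was read in 6 libraries of upf, a double mutant labelled upf3-1upf1-5 and described as compromised in nonsense-mediated decay (NMD). It was also read in 6 libraries of wild type moved to medium that held 10 µg/L, by the label's unit, of the translation inhibitor cycloheximide (CHX). No seedlings were kept unheated for the same times, so heat and time since the start, in the medium or in the day, cannot be told apart.

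A heat shock makes plant cells switch on genes for chaperones, proteins that hold or refold other proteins. The switch is thrown by heat shock factors, which bind heat shock elements in promoters, short inverted repeats of the unit GAA. The endoplasmic reticulum has its own chaperone response, the unfolded protein response. NMD removes transcripts with an early stop codon or with a translated reading frame upstream of the main one. It needs translation, so CHX hinders it as well.

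The data were normalized counts, read counts per transcript that the authors scaled to make libraries comparable. Here they were summed per gene. The 6 libraries summed to between 23.3 and 31.0 × 1e6 normalized counts, and an estimated 26.48 to 54.12 × 1e6 reads lay behind each. Replicate 3 at 45 min stood apart, with the highest sum and 14.5% of it in its 10 highest genes, against 12.8 and 13.1% in the other 45 min libraries and 10.4 to 10.6% at 30 min. Markers of root and shoot were present, as the label seedlings implies. The root marker PYK10 ran from 7451 to 16912.5 normalized counts over the 6 libraries, and the 25 genes of the photosynthesis list made up 8.46 to 11.5% of each library. Seed storage genes varied between libraries of 1 group. Cruciferin 3 (CRU3) stood at 411.5, 453 and 24.5 at 30 min and at 12, 13 and 49.5 at 45 min, and its change was not significant (log2 change -3.01, adjusted p = 0.418). In whole seedlings, fewer cells of a type and less RNA per cell cannot be told apart.

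Between 30 and 45 min, 132 genes rose (0.636% of the 20747 tested) and 140 fell (0.675%). Rose and fell are used below of genes that changed at least 2-fold on the log2(value + 1) scale with an adjusted p below 0.05 in limma. Without the fold threshold 995 genes passed (4.8%), 417 upward (2.01%) and 578 downward (2.79%). At an unadjusted p under 0.05 there were 4198 genes, either direction counted. Most changes were small: the median of the risers was 1.32 and that of the fallers -1.25 on the log2 scale, and 14 risers and 8 fallers passed 4-fold. In 120 of the 132 risers and 129 of the 140 fallers the 3 and 3 libraries did not overlap, beside 9.75% and 9.53% of all genes tested. The calls were made from these same libraries, so lack of overlap is no separate evidence, here or for called genes below. Many called genes were weakly expressed, since 55 risers and 79 fallers had a mean under 50 normalized counts even at the time when they were higher. For scale, limma called 1850 genes up and 1093 down from 0 to 15 min, 963 up and 1719 down from 15 to 30 min, and 12 up and 332 down from 45 to 90 min. Those steps share libraries with this one.

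The count rested on the spread pooled over all 14 groups of the series. With the 6 libraries fitted alone, 17 genes rose and 7 fell. When the libraries were scaled to equal sums, 64 genes rose and 365 fell, so that risers made up 14.9% of the calls in place of 48.5%, and the median of all genes moved from 0.00 to -0.21. Leaving out 1 library gave 126 to 382 calls. Without replicate 3 at 45 min, 82 rose and 114 fell. Without replicate 2 at 30 min, 48 rose and 78 fell.

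**Figure D1:**
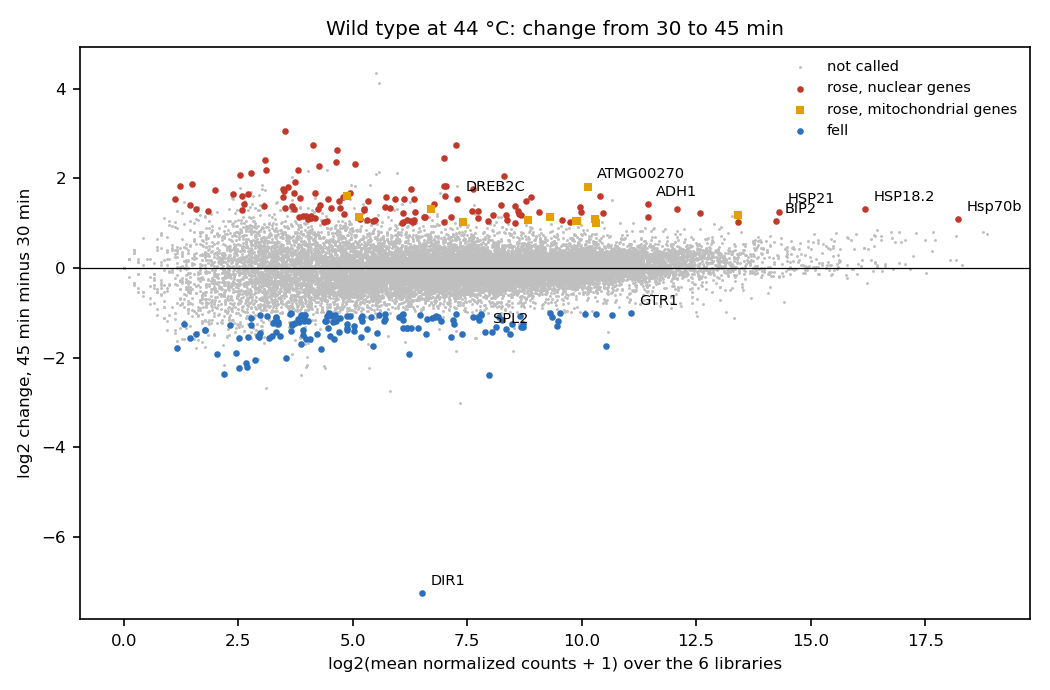
Each point is 1 of the 20747 genes, with the log2 of its mean level over the 6 libraries on the x axis and its log2 change from 30 to 45 min on the y axis. The 132 risers and 140 fallers lie on both sides of a cloud centred on 0, DIR1 lies far below it, and the 3 risers at the highest levels are Hsp70b, HSP18.2 and HSP21.

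Of the genes for small heat shock proteins and cytosolic chaperones, HSP18.2, HSP21 and Hsp70b rose. HSP18.2 (AT5G59720, chromosome 5, 24062323 to 24063300, plus strand of TAIR10.1), a small heat shock protein, stood at 38374.5, 39606.5 and 46821 normalized counts at 30 min and at 90926.5, 75640.5 and 156188 at 45 min. All 3 later libraries lay above all 3 earlier ones. Its log2 change was 1.31 (SE 0.28, adjusted p = 0.00572), and without replicate 3 at 45 min it was 1.00 with an adjusted p of 0.0603. HSP21 (AT4G27670, chromosome 4, 13818825 to 13819971, minus strand), the small heat shock protein of the chloroplast, went from 11319.5, 11508.5 and 13260.5 to 26486, 27851 and 32095.5. Here too the groups were separate, with a log2 change of 1.26 (SE 0.33, adjusted p = 0.0239). Leaving out any 1 of 4 libraries took its adjusted p above 0.05, to 0.0983 at most. Before heat HSP21 averaged 1.5 and HSP18.2 averaged 41.3, and at 90 min they averaged 27933 and 123096.

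HSP18.2 and HSP21 were the 2 called among 16 small heat shock proteins tested. All 16 had a change above 0, with a median of 0.72 beside 0.00 for all genes, and 15 of 16 were above 0 with equal sums. The other 14 changed by 0.01 to 0.85 on the log2 scale, with adjusted p-values from 0.078 to 0.99. The summed share of all 16 was 2.86 to 3.48% of a library at 30 min and 3.84 to 5.86% at 45 min. By product name 37 HSP20-like proteins were tested, a family picked after its values were seen. Of these 37, 3 rose (8.11%, beside 0.636% of all genes) and 8 were below 0. Their median was 0.42 (0.22 with equal sums).

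Hsp70b (AT1G16030, chromosome 1, 5501966 to 5504535, minus strand), a heat-induced cytosolic HSP70, went from 197750, 195352 and 185360 to 397978, 351890 and 495410 normalized counts. The groups were far apart and the log2 change was 1.09 (SE 0.22, adjusted p = 0.00316), or 0.96 without replicate 3 at 45 min. It was the 1 gene called of 20 cytosolic chaperones and co-chaperones. With equal sums its change was 0.88 and none of the 20 was called. All 20 were above 0 under both scalings, with medians of 0.60 and 0.39, and 11 of 20 passed the adjusted p alone, where 2.01% of all genes did so upward. They include HSP101 (log2 change 0.76, adjusted p = 0.034), the disaggregase needed for heat tolerance, and HSP90.1 (0.72, adjusted p = 0.021). The list held 9.24 to 9.97% of a library at 30 min and 13.1 to 13.8% at 45 min.

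None of 14 organelle chaperones was called by limma, and 6 were higher at an unadjusted p under 0.05. Of all 20747 genes, 4198 passed that level in either direction. The list's median was 0.27 (0.06 with equal sums, beside -0.21 for all genes). The 3 that passed the adjusted p alone are all mitochondrial. MTHSC70-2, an HSP70, went from 86082, 81718 and 75557 to 140655, 138686 and 144800, so that its log2 change was 0.80 (SE 0.17, adjusted p = 0.00497) without overlap. The chaperonins HSP60 and HSP60-3A changed by 0.67 (adjusted p = 0.00515) and 0.53 (0.00502). The chloroplast chaperonin subunits CPN60A and CPN60B changed by 0.26 and -0.16, neither past the test. Not every member followed this split. The chloroplast CLPB3 changed by 0.59 without overlap (adjusted p = 0.0561). The mitochondrial CLPB4 and mtHsc70-1 changed by 0.15 and 0.28 (0.571 and 0.33).

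Among 24 heat shock and related factors, DREB2C was called. DREB2C (AT2G40340, chromosome 2, 16848160 to 16850494, minus strand) encodes an AP2-type factor that acts on HSFA3, and went from 104.5, 55.5 and 82.5 to 211.5, 232 and 243 normalized counts. The groups did not overlap and the log2 change was 1.53 (SE 0.26, adjusted p = 4.2e-04). HSFA3 changed by 0.75 (adjusted p = 0.00827) and DREB2A, its activator, by 0.79 (4.9e-04). HSFA2, the main amplifying factor, averaged 102674 at 30 min and 155073 at 45 min, a change of 0.59 (adjusted p = 0.032). With equal sums HSFA3 and HSFA2 no longer passed (adjusted p = 0.0985 and 0.093), while DREB2A still did (0.00207). The list's median was 0.22 (0.01 with equal sums, beside -0.21 for all genes). Of the 24, 16 were above 0 and 8 below. The 4 HSFA1 genes, whose proteins start the response, changed by -0.12 to 0.24 with adjusted p-values of 0.428 and above.

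Among 20 genes of the unfolded protein response, BIP2 rose. BIP2 (AT5G42020, chromosome 5, 16807342 to 16810693, minus strand), the HSP70 of that compartment, averaged 2515 before heat and 3040 at 15 min. It then stood at 12101.5, 11811 and 14055.5 at 30 min and at 25711.5, 24430.5 and 28313.5 at 45 min. The log2 change of 1.05 (SE 0.30, adjusted p = 0.0342) was larger than the spread within groups, but it lost its call when any 1 of 5 libraries was left out, with an adjusted p of at most 0.132. BIP2 is 95.9% identical to BIP1 in its coding sequence, so reads may be split between them. BIP1 went from 23900.5, 25196.5 and 26739.5 to 40325, 39673 and 49593, a change of 0.77 (adjusted p = 0.0576). The list's median was 0.34, 17 of 20 were above 0 and 6 passed the adjusted p alone upward. Those below 2-fold were the lectin chaperones CNX1 (0.91), CRT1b (0.81) and CRT1a (0.54), the HSP90 SHD (0.68) and the co-chaperone ATERDJ3B (0.58). CRT1a averaged 2689 before heat, 1701 at 30 min and 2473 at 45 min, so it did not pass its unheated mean. BIP3 had the largest change of the list (1.52) but did not pass the test (adjusted p = 0.0989), at means of 6.67 and 16.8. In upf it changed by -0.64. With equal sums none of the 20 was called, BIP2 included. The list's median was then 0.12, beside -0.21 for all genes, with 12 above 0. Of the sensors and factors that drive the response, IRE1A, BZIP60, BZIP28 and BZIP17 changed by 0.10, 0.20, 0.40 and 0.27, none past the test. IRE1-1, the second IRE1 gene, and the factor NAC103 changed by -0.55 (adjusted p = 0.106) and -0.60 (0.206), and IRE1-1 by -0.76 (0.0452) with equal sums. The chaperones CRT3, PDIL1-2 and ATERDJ3A changed by -0.26, 0.09 and 0.13, none past the test.

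**Figure D2:**
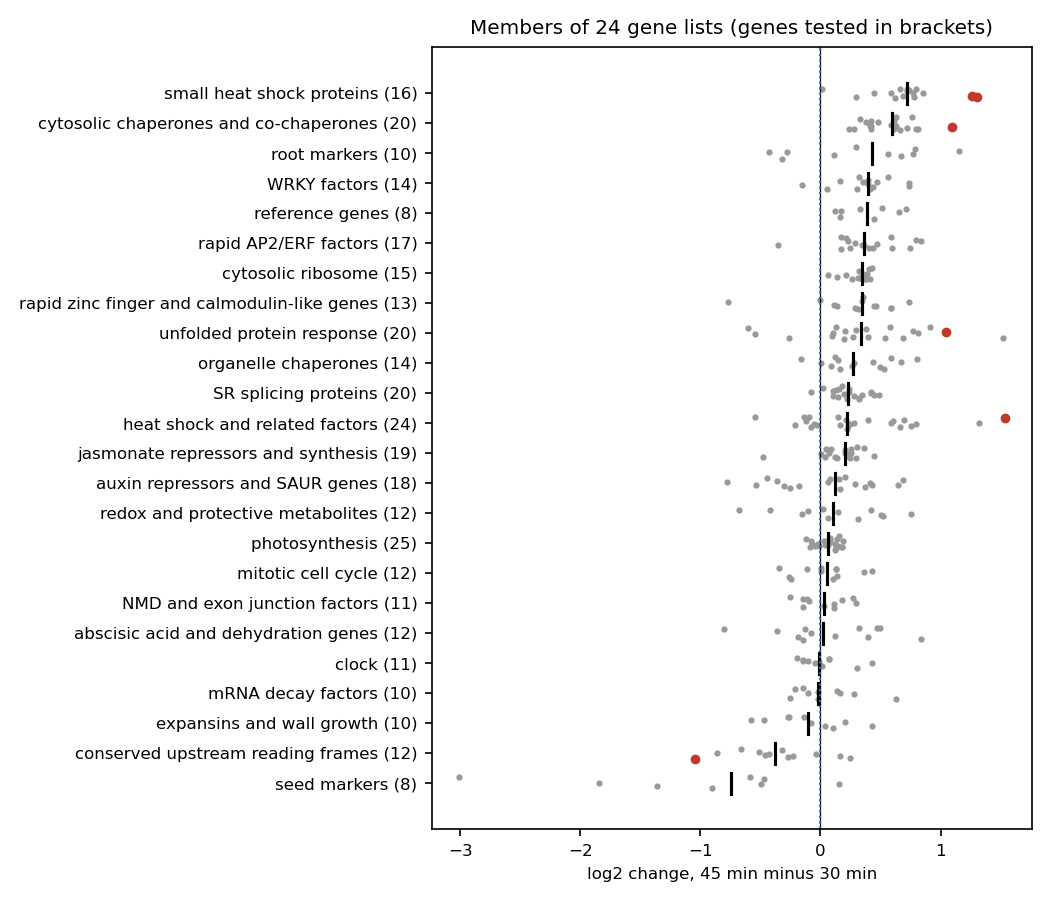
Each row is a gene list and each point 1 tested member, with its log2 change from 30 to 45 min on the x axis; red points passed the test and 2-fold, short bars mark the list median, and the dotted line the median of all genes. The small heat shock proteins and cytosolic chaperones have the highest medians (0.72 and 0.60) and the seed markers and conserved upstream reading frames the lowest (-0.74 and -0.37).

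The letters of heat shock elements were searched in the 250 bases before each annotated start, on either strand. An element of 3 units reads GAA, any 2 bases, TTC, any 2 bases and GAA, or TTC, any 2 bases, GAA, any 2 bases and TTC. It was found in 0 of 120 promoters of risers, 0 of 140 of fallers and 87 of 20553 tested (0.423%). The shorter form of 2 units, GAA and TTC in either order with any 2 bases between, is part of every 3-unit match. It was found in 15 of 120 promoters of risers (12.5%), 27 of 140 of fallers (19.3%) and 3248 of all (15.8%). Among 36 promoters of small heat shock proteins and cytosolic chaperones, 2 held 3 units (5.56%) and 11 held 2 units (30.6%). A match describes letters only, and the window is short and begins at the annotated start. The windows of the 2 called small heat shock proteins are shown because they differ in this respect, read from the TAIR10.1 genome (RefSeq) with the match in capitals. HSP21 has 1 match of 2 units and HSP18.2 has none in this window.
HSP21, chr4:13819972-13820221, minus strand: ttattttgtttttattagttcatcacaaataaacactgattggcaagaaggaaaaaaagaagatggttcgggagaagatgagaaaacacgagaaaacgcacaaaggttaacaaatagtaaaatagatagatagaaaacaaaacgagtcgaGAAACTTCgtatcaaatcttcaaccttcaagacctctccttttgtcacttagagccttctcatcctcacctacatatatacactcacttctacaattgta
HSP18.2, chr5:24062073-24062322, plus strand: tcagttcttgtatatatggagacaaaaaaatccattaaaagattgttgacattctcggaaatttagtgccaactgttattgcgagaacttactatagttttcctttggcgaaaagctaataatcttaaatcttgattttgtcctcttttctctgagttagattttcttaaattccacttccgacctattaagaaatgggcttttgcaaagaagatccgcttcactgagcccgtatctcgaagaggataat

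The largest rises and falls were named only among called genes whose 3 and 3 libraries did not overlap. For them the lack of overlap is part of the choice and adds no evidence. Several nuclear genes with the largest rises had been near 0 before heat. AT3G59730, a lectin receptor kinase (chromosome 3, 22064192 to 22065957, minus strand), went from 30, 37 and 49 normalized counts to 190, 251 and 198.5. The groups were far apart, with a log2 change of 2.45 (SE 0.42, adjusted p = 5.98e-04), and it had averaged 3.67 before heat. SVL4, a relative of the wall protein SHV3, went from 10.5, 8 and 12 to 57.5, 52 and 53 (log2 change 2.32, adjusted p = 0.00144), and it overlaps AT5G58040. AT4G28140, an AP2-type DNA-binding protein, went from 59.5, 57 and 48.5 to 210, 188.5 and 192 (1.82, adjusted p = 3.14e-05) and rose in upf (2.22) and with CHX (1.88) as well. AT1G21940, an uncharacterized protein, had averaged 0.333 before heat. It went from 515.5, 609.5 and 903 to 1665.5, 2192 and 2215.5, so that its log2 change was 1.61 (SE 0.23, adjusted p = 6.82e-05).

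Other large rises were less even among libraries. AT4G15160, a lipid-transfer-like protein, went from 82, 55 and 127 to 204.5, 478.5 and 230. MRN1, the marneral synthase of a root triterpene, went from 62.5, 80 and 42 to 180, 286.5 and 116.5. AT2G36690, an oxygenase, went from 32, 16.5 and 59.5 to 62, 139 and 152. Their log2 changes were 1.75, 1.60 and 1.76 with adjusted p-values of 0.0154, 0.028 and 0.0442, and their calls were lost without 2, 5 and 4 of the 6 libraries in turn. These genes had averaged 135, 129 and 35.5 before heat and 259, 145 and 84.7 at 15 min. Each was lower at 30 min (88, 61.5 and 36) than at 15 min. In upf they changed by -0.43, 0.40 and -0.21 and with CHX by -0.66, 0.75 and -0.28, none past the test. AT4G12530, also lipid-transfer-like, and AT4G39790, a DUF630 protein, rose by 1.83 (adjusted p = 0.00317) and 1.58 (0.0015). AT5G57510 rose by 1.54 with an adjusted p of 0.0309, and its call was lost without any 1 of 5 libraries.

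The largest fall was that of DIR1 (AT5G48485, chromosome 5, 19646028 to 19646840, minus strand), a lipid-transfer protein needed for long-distance immune signalling. It averaged 927 ± 63.7 normalized counts (SD, n = 3) before heat and 487 ± 155 at 15 min. At 30 min it stood at 117.5, 202 and 221, and at 45 min it was listed at 0, 0 and 0.5. At 90 min it was listed at 0. Its limma test gave an adjusted p of 9.27e-13, and a listed 0 can be a failed estimate, so no fold is given. In upf it went from 159.5, 170.5 and 497.5 to 0 in all 3 libraries. With CHX it went from 359, 515 and 457.5 to 154, 208.5 and 31, so that transcripts were still listed in every library. DIR1 overlaps AT5G48480 on the other strand, which stood at 1338 to 1510 and then at 1369.5 to 1838. Its neighbour AT5G48490, 77.0% identical in coding sequence, went from 178.5, 200 and 319.5 to 90, 136.5 and 278.5, with overlapping groups and an adjusted p of 0.319.

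The other named fallers have varied roles. SPL2 (AT5G43270, chromosome 5, 17360287 to 17363880, minus strand), a squamosa promoter binding factor of shoot development, went from 351, 359 and 313 to 166.5, 127.5 and 95 without overlap. The log2 change was -1.42 (SE 0.20, adjusted p = 4.23e-05), and it was -1.31 in upf and -1.14 with CHX. The subtilisin-like proteases AT2G39850 and AT4G21650 fell by 1.47 (adjusted p = 1.64e-04) and 1.42 (9.06e-04). FRO8, a ferric reductase of mitochondria, averaged 478 before heat, 66.0 ± 24.1 at 30 min and 19.0 ± 6.54 at 45 min (SD, n = 3), a log2 change of -1.73 (adjusted p = 3.88e-04). MGDC, a galactolipid synthase, went from 112, 141.5 and 99.5 to 37, 24.5 and 30.5. Its groups were separate, yet its adjusted p was 0.0477 and every 1 of the 6 libraries left out took it above 0.05, to 0.179 at most. GDPD6, AT3G24463 and AT3G24080 fell by 1.54, 1.45 and 1.47, with adjusted p-values of 0.0445, 0.0344 and 0.0263, and lost their calls without any 1 of 5, 5 and 3 libraries. In AT3G24080 replicate 2 at 45 min stood at 51 beside 305 and 302, and without it the change was -0.61. AT3G59750, a lectin receptor kinase near the riser AT3G59730, fell from 170.5, 148 and 111.5 to 50, 55.5 and 45 (log2 change -1.48, adjusted p = 1.64e-04). Of its 1881 coding bases, 1044 are identical to bases of AT3G59730, which has 1338. The 2 genes summed to 200.5, 185 and 160.5 at 30 min and to 240, 306.5 and 243.5 at 45 min. Whether reads are divided between them was not tested.

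Some fallers had been raised by the first minutes of heat. AT4G24413, an uncharacterized protein (chromosome 4, 12625014 to 12625560, minus strand), averaged 9.83 before heat and 349 at 15 min, stood at 2291, 2487.5 and 1873 at 30 min and then at 898.5, 1057 and 293. Its log2 change was -1.75 (SE 0.41, adjusted p = 0.0102), and the call was lost without replicate 2 at 30 min or replicate 3 at 45 min. It overlaps AT4G24415. The next gene, AT4G24420, an RNA-binding protein on the other strand, averaged 1.33 before heat and went from 211.5, 213 and 195.5 to 80.5, 89.5 and 48.5 (log2 change -1.54, adjusted p = 0.00114). GTR1, a transporter of glucosinolates, averaged 1153 before heat and 6474 at 15 min, then 2862 ± 229 at 30 min and 1452 ± 373 at 45 min (-1.01, adjusted p = 0.00177). AT1G78850, a mannose-binding lectin, followed the same course, with 3893, 6395, 2199 ± 378 and 1062 ± 172 (-1.05, adjusted p = 1.52e-05). Both lie near the 2-fold line and fell under it without any 1 of 4 and of 2 libraries, where ARAD2 (-1.00038) was the last faller inside it and UGT73C7 (-0.998823) the first outside.

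**Figure D3:**
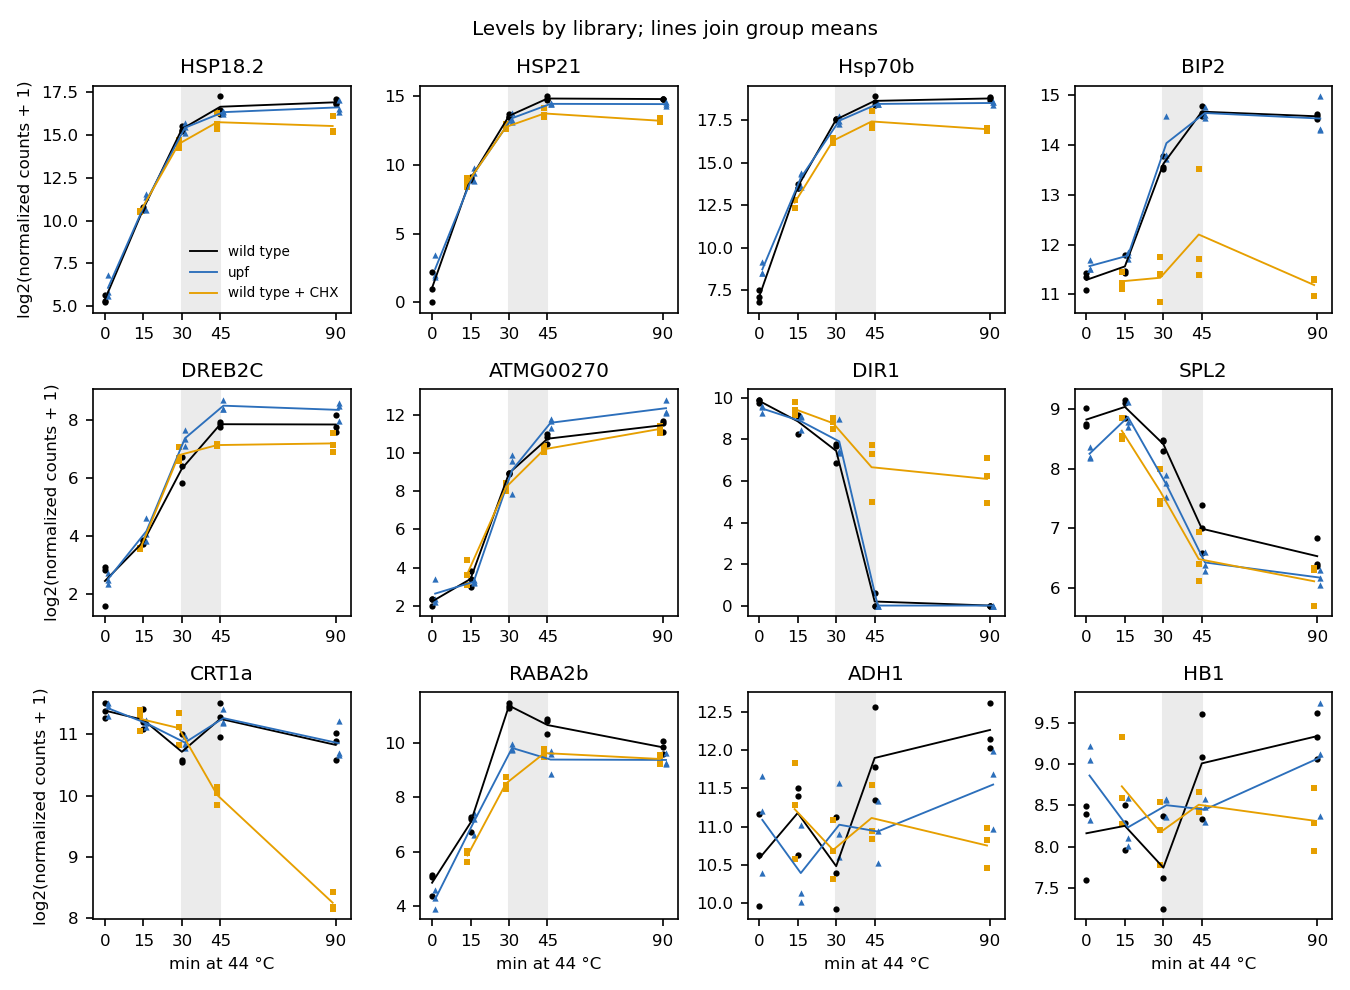
Each panel shows 1 gene as log2(normalized counts + 1) on the y axis against minutes at 44 °C on the x axis, with 1 point per library, lines through group means and the 30 to 45 min interval shaded. The heat shock genes climb steeply to 30 min and more slowly to 45 min, DIR1 drops to 0 in wild type and upf but not with CHX, and CRT1a is lower at 45 than at 30 min with CHX and not in wild type.

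Of the mitochondrial genome, 12 genes rose. Of 107 tested, 12 rose and 0 fell, which is 11.2% beside 0.636% of all genes. At an unadjusted p under 0.05 limma put 41 above and 0 below, beside 4198 of 20747 genes in either direction. In all, 100 of 107 were above 0, with a median log2 change of 0.55 (0.34 with equal sums, where 3 were called). ATMG00270 went from 505.5, 496.5 and 487.5 normalized counts to 2051.5, 1831.5 and 1416, so that its log2 change was 1.81 (SE 0.34, adjusted p = 0.0015). It had averaged 3.67 before heat. ATMG00030, the most abundant of the 12, went from 8845.5, 6195.5 and 5323 to 17721.5, 13350 and 14200.5 (1.18), after 1040 before heat. The summed share of this genome was 0.0174 to 0.0199% of a library before heat, 0.159 to 0.260% at 30 min, 0.218 to 0.354% at 45 min and 0.294 to 0.363% at 90 min. In the same interval limma called 12 up in upf and 14 up with CHX, with medians of 0.48 and 0.59. Of the 17 genes called up in all 3 conditions, 8 were mitochondrial.

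Plastid genes had a median below 0, and none passed the test. None of 86 was called by limma, and 1 was lower at an unadjusted p under 0.05, beside 4198 of 20747 genes in either direction. Of the 86, 7 were above 0 and the median was -0.42 (-0.64 with equal sums, beside -0.21 for all genes). The median was 0.55 in upf and -0.49 with CHX. The plastid share of a library was 0.898 to 1.52% at 30 min and 0.443 to 1.32% at 45 min, so the groups overlapped. By replicate number it went from 1.52 to 1.32%, from 1.08 to 0.769% and from 0.898 to 0.443%, lower at 45 min under each number, and replicate 1 was highest and replicate 3 lowest in all 5 groups of wild type without CHX. The libraries were made from mRNA, and organelle transcripts enter such libraries only in part. The list of mitochondrial genes was looked at after their values were seen.

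**Figure D4:**
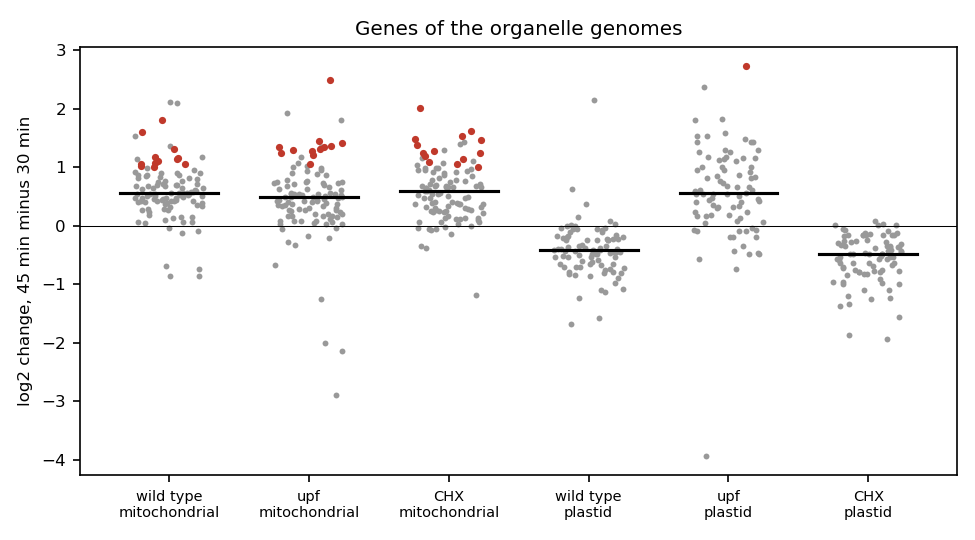
Each point is 1 tested gene of the mitochondrial or plastid genome, with its log2 change from 30 to 45 min on the y axis, in wild type, upf and CHX; red points passed the test and 2-fold and bars mark medians. Most mitochondrial genes lie above 0 in all 3 conditions (medians 0.55, 0.48 and 0.59), and most plastid genes lie below 0 in wild type and with CHX and above 0 in upf.

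Rapid stress regulators gave no calls. Limma called none of 17 AP2/ERF factors, 13 zinc finger and calmodulin-like genes, 14 WRKY factors and 19 jasmonate genes. At an unadjusted p under 0.05, 4, 2, 3 and 1 of them were higher and 0, 1, 0 and 1 lower. Of all 20747 genes, 4198 passed that level in either direction. The medians of these lists were 0.36, 0.34, 0.39 and 0.21. With equal sums they were 0.15, 0.13, 0.18 and -0.01, beside -0.21 for all genes. CEJ1, an AP2 factor, had the largest change of its list (0.84, adjusted p = 0.0768). TCH4, a wall enzyme induced by touch, went from 26168, 27124.5 and 28750.5 to 20223.5, 14744 and 13918.5, a change of -0.77 that passed the adjusted p (0.0344) without reaching 2-fold. WRKY54 changed by 0.74 (adjusted p = 0.335) at a mean of 3.17 and CYP94B3, which inactivates jasmonate, by -0.48 (0.198).

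Genes of growth and housekeeping gave no calls. Limma called none of 12 abscisic acid and dehydration genes, 18 auxin genes, 10 expansins, 12 cell cycle genes, 25 photosynthesis genes, 15 ribosomal proteins, 20 SR splicing proteins, 11 NMD and exon junction factors, 10 decay factors, 11 clock genes, 12 redox genes, 10 root markers, 8 seed markers and 8 reference genes. Of all 20747 genes, 4198 had an unadjusted p under 0.05 in either direction. Between 0 and 5 members of each list were higher, and 0 to 2 lower, at that level. The member that changed most in each was KIN1 (0.84, adjusted p = 0.0499), SAUR20 (-0.78, 0.322), EXPA1 (-0.58, 0.129), CYCB1;4 (0.43, 0.178), LHCA2 (0.19, 0.675), the ribosomal protein PFL (0.43, 0.172), SCL33 (0.48, 0.0598), MAGO (0.29, 0.255), CAF1b (0.63, 0.0817), GI (0.43, 0.224), GolS1 (0.76, 0.0045), SHV2 (1.15, 0.0751), CRU3 and ACT8 (0.71, 0.0158). GolS1, which makes the osmoprotectant galactinol, went from 46879.5, 48310.5 and 50075.5 to 70394, 89820 and 86230.5. Reference genes had a median of 0.39, ribosomal proteins of 0.35 and photosynthesis genes of 0.06. With equal sums these were 0.17, 0.13 and -0.15, beside -0.21 for all genes. All 25 photosynthesis genes were then below 0, with a median above that of all genes.

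The list that leaned furthest downward apart from the seed markers was that of 12 genes with a conserved upstream reading frame, a feature that can make a transcript an NMD target. AT5G09460, transcription factor bHLH143 (chromosome 5, 2943738 to 2946839, minus strand), went from 297.5, 384.5 and 221 to 157, 169 and 106.5. The groups were separate, with a log2 change of -1.05 (SE 0.21, adjusted p = 0.00268), and -0.85, under 2-fold with an adjusted p of at most 0.0462, when replicate 2 at 30 min or replicate 3 at 45 min was left out. Its relative AT1G29950 went from 397, 389 and 256 to 208, 179 and 176.5 (-0.86, adjusted p = 5.97e-04). The list's median was -0.37 and 10 of 12 were below 0. In upf the median was 0.10 and in CHX 0.01, with no member called in either. AT5G09460 changed by 0.05 in upf (means 1491 and 1529) and -0.14 with CHX (means 891 and 803). In wild type it had already fallen before this interval, from a mean of 1085.5 before heat to 572 at 15 min. Its log2 changes were -0.93 from 0 to 15 min and -0.95 from 15 to 30 min. The list's medians in those steps were -0.21 and -0.52. The difference between its steps in wild type and upf was -1.10 with an adjusted p of 0.547, so a difference was not shown. For AT1G29950 the wild-type step differed from that with CHX by -0.999, under 2-fold (adjusted p = 0.049989). With CHX it went from 626.5, 699.5 and 556 to 605, 660.5 and 815.5.

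The interval was also read in the 12 libraries of upf and CHX, none of them shared with wild type. These are a mutant and a drug treatment, and no repeat of the wild-type step. All steps shared 1 estimate of each gene's spread, so the calls are not fully independent. In upf 58 genes rose (0.28%) and 91 fell (0.439%), and with CHX 70 rose (0.337%) and 80 fell (0.386%). Of the 132 wild-type risers, 35 were called up in upf, 26.52% of the wild-type list and 60.3% of the upf list. With CHX it was 24, or 18.18% and 34.3%. Of the 140 fallers, 20 were called down in upf (14.3% and 21.98%) and 17 with CHX (12.1% and 21.3%). None was called in the opposite direction in either. Same-sign changes were seen for 104 of 132 risers and 123 of 140 fallers in upf, and for 105 and 123 with CHX. Among all genes tested, 46.7% were above 0 and 53.2% below 0 in upf, and 49.7% and 50.3% with CHX. The sizes were smaller in the other libraries, with medians of 0.58 and -0.55 in upf and 0.54 and -0.52 with CHX, where the genes had not been picked for their change. In all 3 conditions 17 genes rose and 8 fell, SPL2 and DIR1 among the latter.

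**Figure D5:**
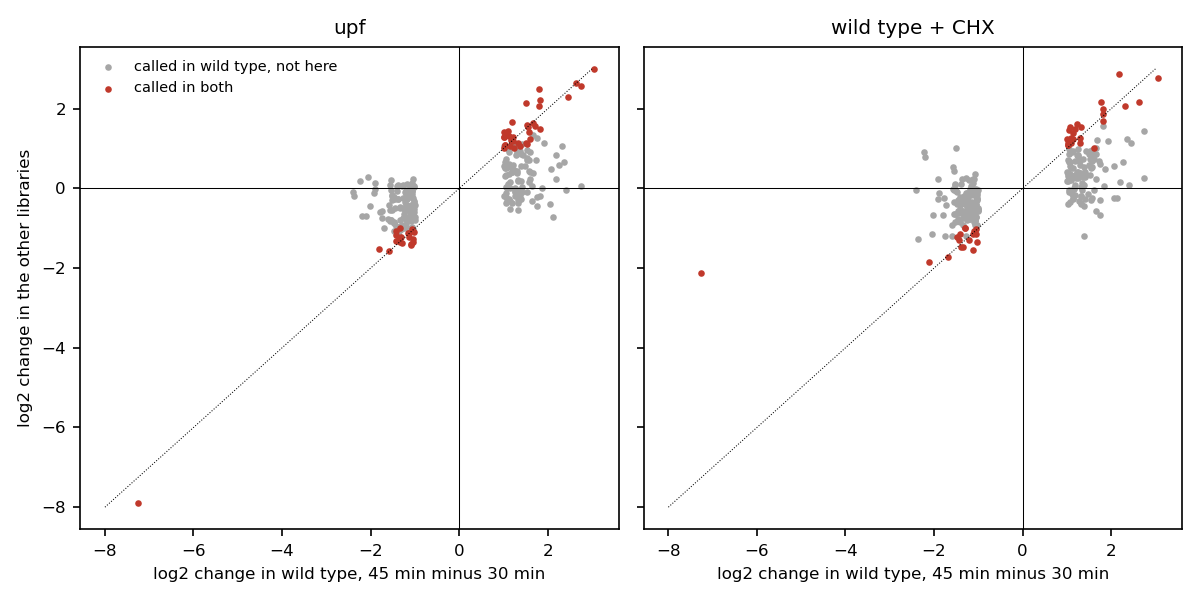
Each point is 1 of the 272 genes called in wild type, with its log2 change there on the x axis and its log2 change in upf (left) or with CHX (right) on the y axis; the dotted line marks equal changes and red points are called in both. Most points lie on the same side of 0 on both axes and nearer to 0 on the y axis, and DIR1 lies near the line in upf and far above it with CHX.

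Testing the difference of the steps directly gave few genes. Between wild type and upf, limma called 1 gene (0.00482%), and 1811 had an unadjusted p under 0.05. AT5G36000, an F-box protein, went from 54, 44 and 42 to 14, 18.5 and 18.5 in wild type and from 121, 90 and 93.5 to 119.5, 85 and 114.5 in upf. It was called down in wild type and not in upf, with a difference of -1.47 (SE 0.26, adjusted p = 0.0455). It overlaps AT5G36001 and AT5G36002. The call held in 4 of 12 fits that left out 1 library and not with the replicate number as a block (adjusted p = 0.0807).

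Between wild type and CHX, 8 genes differed (0.0386%), 5 with the higher change in wild type (0.0241%) and 3 with the lower (0.0145%), and 16 passed the adjusted p alone (0.0771%). CRT1a (AT1G56340, chromosome 1, 21089565 to 21092709, minus strand), a calreticulin, went from 1507, 1532.5 and 2064.5 to 2502, 2917 and 1998.5 in wild type and from 2232, 1826 and 2615.5 to 1054.5, 924.5 and 1126 with CHX. The groups overlapped in wild type and were far apart with CHX, and the steps differed by 1.63 (SE 0.22, adjusted p = 1.26e-04). Unheated wild type averaged 2689. CRT1b, 81.5% identical in coding sequence, differed by 0.95 (adjusted p = 0.0415). RABA2b, a Rab GTPase of vesicle traffic, went from 2826.5, 2469 and 2597.5 to 1854.5, 1759 and 1262.5 in wild type. With CHX it went from 350.5, 315.5 and 427.5 to 778.5, 877 and 709.5, a difference of -1.83 (adjusted p = 0.0064). DIR1 differed too (adjusted p = 7.64e-05), with no size given because it is listed at or near 0 at 45 min. The lipase-like AT1G29670 changed by 0.14 in wild type and -1.08 with CHX, the pectin lyase-like AT4G23820 by 0.11 and -1.15, and the gibberellin-regulated AT2G14900 by 0.48 and -0.80. CRT1a, RABA2b, DIR1 and AT1G29670 were called in all 12 fits that left out 1 library, AT4G23820 in 6 and AT2G14900 in 2. With the replicate number as a block 5 genes were called, and AT2G14900 was not (adjusted p = 0.0512).

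Transcript usage, the change of a transcript against the other transcripts of its gene, gave 161 calls in 124 genes (0.701% of 22958 transcripts tested). Of these, 30 were listed at 0 in all 3 libraries of a group, and 12 were called in each of the 6 fits that left out 1 library. On simulated data the usage test made false calls, so single transcripts are uncertain. In AT5G18065 transcript 1 went from 169.5, 189 and 144 to 82, 0 and 0 normalized counts while transcript 2 went from 295.5, 288.5 and 396.5 to 766, 921 and 737. It was called in all 6 fits. PBF1, a proteasome subunit, had transcript 3 listed at 0 at 30 min and at 75, 46.5 and 195.5 at 45 min, beside 1282.5 to 1361 and 1415.5 to 1695.5 for its transcript 1. It was called in 4 of 6 fits. Transcripts of AT4G16260, DAA1 and GMI1, also among the largest changes, were called in 3, 3 and 4.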

How the data were processed

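The authors deposited a score per transcript and lane, which they call normalized counts, rounded to whole numbers; it was read here as counts divided by a size factor, so it is no raw count and no count test was run. The submitters' processing notes name kallisto, sleuth and the TAIR10 build without versions, and nothing here states how the scaling was done. Low values are spaced by what 1 read is worth, from which reads per library were estimated. The 2 lanes were averaged and transcripts summed per gene. Genes with at least 10 in at least 3 of 42 libraries were tested (20747 of 27655 listed) on log2(value + 1) with limma 3.58.1 in R 4.3.3, 1 mean for each of 14 groups, a variance trend and Benjamini-Hochberg adjustment, so folds of low genes are understated. Adjusted p-values are limma's, for transcript usage from its diffSplice test. Scripts were tested on simulated data, where usage tests made false calls. Replicates are 3 biological samples per group, per the labels.

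Names and positions come from the TAIR10.1 annotation (27445 genes matched), read with Python 3.11.15, pandas 2.3.3, numpy 2.4.6 and Biopython 1.88. Figures used matplotlib 3.10.9. The members and lists were chosen with earlier results of these data known. Of 353 list members in 24 lists, 331 matched the reference by symbol and 22 by product, the latter accepted after the files were seen. Named genes are the 12 largest rises and falls with a mean of at least 50 and no overlap, up to 4 called members per list or else the most changed one, the 3 highest risers and fallers, up to 4 genes each way per step difference, and 6 transcripts. Genes of the mitochondrial genome, BIP1, CRT1b, HSP101, HSP90.1, the factors beside DREB2C, HSP60, HSP60-3A, CPN60A, CPN60B, the other members beside BIP2, AT1G29950, PYK10 and the genes of the closing section were named after their values were seen.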

Additional observations from a re-analysis of the deposited data

Results flagged for a closer look

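The step from 30 to 45 min differed between wild type and another condition by limma's test of the difference for 9 genes, and each value is the log2 change in wild type minus that in the other condition. Against upf it was AT5G36000 (-1.47, adjusted p = 0.0455). Against CHX the wild-type change was the higher for AT4G34770 (2.1001), CRT1a (1.63), AT2G14900 (1.29), AT4G23820 (1.26) and AT1G29670 (1.21). It was the lower for DIR1 (-5.14, a fitted value that depends on the pseudocount, since wild type is listed at 0, 0 and 0.5 at 45 min, and is no measure of size), AT4G15165 (-2.52) and RABA2b (-1.83). AT4G34770, a SAUR-like gene, averaged 1.67 and 3.67 normalized counts in wild type, and 39.7 and 16.7 with CHX. AT4G15165 averaged 10.7 and 2.67 in wild type, and 16.5 and 40.2 with CHX, where replicate 3 at 45 min stood at 75.5 beside 22.5 and 22.5. These 2 genes lie under the level used for naming genes, were called in 3 and 5 of 12 fits that left out 1 library, and were not called with the replicate block (adjusted p = 0.0524 and 0.0512). Causes were not tested.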

How the results depend on the processing

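The 272 calls of the wild-type step became 429 with equal sums (204 of them shared) and 24 with the 6 libraries alone, and 126 to 382 with 1 library left out. The 7 other settings with all libraries, among them pseudocounts of 0.5 and 5, size factors from medians of ratios and no filter, and each lane alone gave 182 to 295. Leaving out 1 library gave 65 to 200 calls for upf (main 149) and 73 to 221 for CHX (150). The wild-type against upf difference (1) gave 0 with equal sums, 0 with a pseudocount of 5, 0 with the replicate block, 2 without a filter and 0 to 4 with 1 library left out. The CHX difference (8) gave 5 with equal sums, 5 with the replicate block and 4 to 26 with 1 library left out. Usage (161) gave 89 with a filter of 50 and 97 to 223 with 1 library left out. Causes were not tested.

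Same-numbered deviations from the group mean correlated at 0.20, -0.04 and 0.20 at 30 and 45 min, and different-numbered ones at -0.28 to 0.11. The values of 0.20, for replicates 1 and 3, were thus the highest, and the plastid share followed the order of the numbers. Both are hints of pairing from the data and not the design, and the main fit did not pair the libraries. With the replicate block 1257 genes in place of 995 passed the adjusted p alone, and the wild-type step had 286 calls, all 272 among them, and no named call was lost there. Of 33 named genes called in the step, 16 kept the call in each of the 6 fits with 1 library left out, 29 with equal sums and 9 with the 6 libraries alone. No named gene changed direction among the calls. Depth was estimated, so no counting interval is given, and 3 libraries per group limit what can be detected.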

Other observations

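The list of low-oxygen genes was written after their values were seen. Of 14 tested in wild type, 5 rose, beside 0.636% of all genes, and 13 were above 0, beside 49.8% of all. Their median log2 change was 0.74 (0.52 with equal sums, where 5 were called), beside 0.00 for all genes. From 0 to 15 min their median had been 0.19, and from 15 to 30 min it had been -0.71. ADH1, the alcohol dehydrogenase of fermentation, went from 1338.5, 969 and 2241.5 normalized counts to 2612, 3522.5 and 6040 without overlap (1.42, SE 0.38, adjusted p = 0.0265). AT4G33070, a pyruvate decarboxylase that acts before it, went from 268, 150 and 313.5 to 584, 626.5 and 918.5 (1.57, adjusted p = 0.00413). Its mean had been 581 before heat and 613 at 15 min, beside 244 at 30 min and 710 at 45 min. HB1, a hemoglobin, SUS4, a sucrose synthase, and FTM1, a desaturase, rose by 1.27, 1.25 and 2.06. Replicate 3 was the highest library of its time for ADH1, AT4G33070, HB1 and SUS4, and FTM1 stood at 352.5 there at 30 min beside 55.5 and 61, with overlapping groups. For HB1 the groups touched, at 329.5 and 323. The oxygen-sensing enzymes AT5G15120 and AT5G39890 changed by 0.59 and 0.74 without passing the test. ADH1 averaged 1621 before heat, 2395 at 15 min, 1516 ± 655 at 30 min, 4058 ± 1776 at 45 min and 5004 at 90 min. In upf none of the 14 was called, with a median of 0.05, and none with CHX, with 0.38. For ADH1 the difference of the steps was 1.51 against upf (adjusted p = 0.563), so a difference was not shown.

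Some calls are uncertain because reads of near-identical or neighbouring genes may be divided between them. The DNAJ-type genes AT2G05230 and AT2G05250 are identical over all 2121 coding bases. AT2G05230 stood at 95, 144 and 1 at 30 min and at 120.5, 193 and 361 at 45 min, while AT2G05250 stood at 388, 273.5 and 358.5 and then at 313.5, 165.5 and 4. Their sum was 483, 417.5 and 359.5 and then 434, 358.5 and 365. Of 120 nuclear risers, 4 (3.33%) lay within 1000 bases of a gene with at least 10000 normalized counts at 45 min, beside 2 of 140 fallers (1.43%) and 364 of 20554 genes (1.77%). This rule was chosen after a narrower one, for upstream genes on the same strand, had found no called gene in these data. The 4 risers are ASY1, AT3G46220, which overlaps HSP17.4, AT4G10260, 4 bases from ATHSP22.0, and AT2G26160, 185 bases from HSFA2. AT2G26160 went from 4, 3.5 and 4.5 to 19, 17.5 and 12. Whether reads of the neighbour enter these counts was not tested.

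Pentatricopeptide repeat genes encode RNA-binding proteins of organelles. By product name 257 were tested and 189 were below 0, beside 50.1% of all genes. Of these 257, 5 fell (1.95%, beside 0.675% of all) and 2 rose (0.778%, beside 0.636%), and the median was -0.19 (-0.40 with equal sums, where the median of all genes was -0.21). The 5 fallers had means under 50 normalized counts at 30 min. Of 13 germin-like proteins, 3 fell (23.1%) and 0 rose, with 9 below 0 and a median of -0.18 (-0.39 with equal sums). Both families were picked after their values were seen.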
